A study of Mus musculus with 82 samples.

Results

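Mouse ear skin treated with imiquimod cream was set against sham-treated ear skin at day 5 of a time course. The comparison held 10 libraries, chosen by treatment and day alone, of 52 libraries in the time course and 82 in the whole series. There were 6 imiquimod libraries, numbered 25 to 30, and 4 sham libraries, numbered 19 to 22. Each was made from a right ear punch, and the mice were female C57BL/6J Rj. Imiquimod was given as a 5% cream on the ears every day, and the sham group is labelled both vehicle and sham. No mouse in either day 5 group received IDOR-1117-2520, the CCR6 inhibitor that the series tests, and the drug groups entered here only as part of the fit. Total RNA was made into mRNA libraries, and the deposited values were estimated counts per gene. Age is not given, and nothing in the labels says whether libraries of a group are different mice. The p values therefore rest on the variation among libraries, some of which may be technical.

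Imiquimod is an agonist of Toll-like receptor 7, an endosomal sensor of single-stranded RNA carried by plasmacytoid dendritic cells, macrophages and other leukocytes. Signalling through MyD88 leads to NF-kB and to interferon regulatory factors, and so to cytokines, chemokines and type I interferon. In mouse skin the repeated cream is known to give a psoriasis-like inflammation in which IL-23 drives gamma delta T cells to make IL-17 and IL-22, and keratinocytes answer these with chemokines, antimicrobial proteins and thickening of the epidermis. CCL20 is the chemokine that draws cells bearing its receptor CCR6, many of which make IL-17.

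The 10 libraries held 19813900 to 24682200 counts in the imiquimod group and 22348300 to 23998300 in the sham group. At this depth 3 counts correspond to 0.114 to 0.162 CPM, the usual unit of counts scaled to a common library size. Library sizes were corrected with TMM factors, which were 0.925 to 0.965 in imiquimod libraries and 1.06 to 1.10 in sham libraries. Keratin genes held 6.43% to 8.03% of the counts in imiquimod libraries and 3.94% to 4.91% in sham libraries. The first principal component of the day 5 libraries held 74.3% of the variance, with imiquimod libraries at 50.2 to 78.9 and sham libraries at -97.8 to -93.2. On the second component, with 4.01%, imiquimod library 28 lay at -42.2 and library 30 at 26.8, with all sham libraries between them. Markers of the tissues of a whole ear were present in both groups. The basal keratin Krt5 had 10375 to 11091 CPM in imiquimod libraries, against 6240.1 to 7147 CPM in sham libraries. The cartilage proteoglycan Acan had 138 to 165 CPM in imiquimod libraries, against 308 to 406 CPM in sham libraries. The Y-linked gene Ddx3y was listed at 0 in all 10 libraries. Single values of genes with near-identical copies (the Sprr2, stefin, Lce1, Krt6, Serpina3, Skint, Ifit3 and haemoglobin genes) are uncertain, because reads can be shared between copies.

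Most measured genes differed between the groups. A gene was called at an adjusted p under 0.05 from edgeR's quasi-likelihood test with Benjamini-Hochberg adjustment, and 13224 of 18780 tested genes (70.4%) were called. Of these, 6490 were higher in imiquimod ears (34.6% of those tested) and 6734 were lower (35.9%). Higher by a log2 of at least 1 were 2265 genes (12.1%), and lower by as much were 2689 (14.3%). For 10743 genes (57.2%) the 6 imiquimod libraries and the 4 sham libraries did not overlap. The split depends on the scaling. With library totals in place of TMM factors 4896 genes were higher and 8556 lower, the share of higher genes among those called moved from 49.1% to 36.4%, and the median log2 fold change of all genes moved from -0.04 to -0.23. The largest changes were upward: 179 called genes were higher by a log2 of at least 5 and 20 were lower by as much. All log2 fold changes below are imiquimod over sham with their standard error, and each list of genes is to be read against the shares above. A gene listed at 0 in every sham library could not come out lower, and a gene with few sham counts hardly could. This limits what the counts of lists with such members show.

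**Figure D1:**
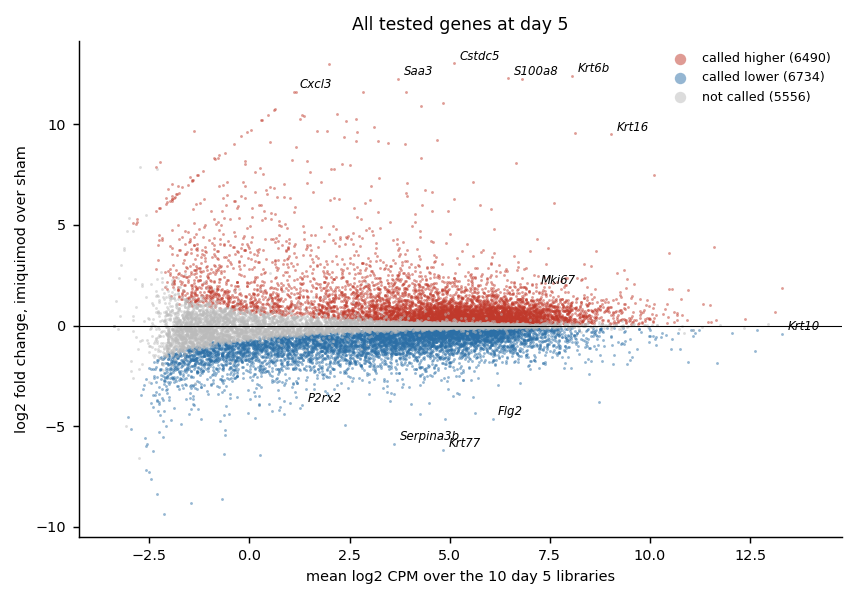
Log2 fold change of imiquimod over sham (y) against mean log2 CPM over the 10 day 5 libraries (x) for all 18780 tested genes, with 6490 called higher in red, 6734 called lower in blue and 5556 not called in grey. Points far above the line outnumber those far below it, with 179 genes higher and 20 lower by a log2 of at least 5.

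The receptor of imiquimod and most of its signalling genes were higher in treated ears. Tlr7 had a lowest, median and highest value of 5.95, 7.78 and 9.25 CPM in imiquimod libraries, against 1.55, 2.05, 3.74 and 2.52 CPM in sham libraries, so every imiquimod library lay above every sham library (log2 fold change 1.66 ± 0.27, adjusted p = 2.84e-07). Of 14 genes of endosomal Toll-like receptor signalling, 11 were higher and 2 lower, with a median log2 fold change of 1.37 against -0.04 over all tested genes. Myd88, the adaptor of most Toll-like receptors, had 89.7 to 121 CPM in imiquimod libraries, against 36.7 to 39.1 CPM in sham libraries (log2 fold change 1.45 ± 0.11). Unc93b1, which carries the endosomal receptors to their compartment, was higher by 1.66 ± 0.15, and Tlr13, a sensor of bacterial ribosomal RNA in mice, by 4.62 ± 0.42. Irak3, an inhibitor of the pathway, was higher by 1.28 ± 0.09. The members called lower were Tlr3, the sensor of double-stranded RNA, at -0.28 ± 0.12, and the kinase Irak1 at -0.23 ± 0.04, and Irak2 was not called (-0.08 ± 0.07, adjusted p = 0.339). The Tlr3 call (adjusted p = 0.036) was lost under DESeq2 (adjusted p = 0.0506), with no filter (adjusted p = 0.0644) and with only the groups compared (adjusted p = 0.0777), which leaves 1 lower member. It was also lost without imiquimod library 25, 26, 28 or 30 or sham library 19, 20 or 22 (-0.28 to -0.21, adjusted p = 0.0545 to 0.114).

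Genes that NF-kB induces and that feed back on it were higher in 11 of 13 cases and lower in none, with a median of 0.99. Zc3h12a, a ribonuclease that degrades cytokine mRNAs, had 199 to 323 CPM in imiquimod libraries, against 23.5 to 31.3 CPM in sham libraries (log2 fold change 3.17 ± 0.16). Nfkbiz, the co-activator that serves IL-17 responses in keratinocytes, had 97.4 to 139.97 CPM in imiquimod libraries, against 21.6 to 27.2 CPM in sham libraries (2.33 ± 0.12). Bcl3, a nuclear member of the same inhibitor family, was higher by 4.21 ± 0.31, and Nfkb1 by 0.99 ± 0.08. Relb and Tnip1 were not called, at 0.10 ± 0.09, adjusted p = 0.303 and 0.02 ± 0.07, adjusted p = 0.782. Feedback genes of cytokine receptors split: Socs3 was higher by 2.66 ± 0.27, Socs1 by 1.65 ± 0.18 and Stat3 by 1.28 ± 0.09, while Cish, a gene that STAT5 induces, was lower (-0.40 ± 0.13) and Socs2 was not called (-0.31 ± 0.16, adjusted p = 0.0792).

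The cytokines of the IL-23 and IL-17 axis were near 0 in sham ears and present in every treated ear. Il23a, the subunit particular to IL-23, had a lowest, median and highest value of 0.394, 0.799 and 1.46 CPM in imiquimod libraries, against 0, 0.2096, 0.0415 and 0.03996 CPM in sham libraries (log2 fold change 3.55 ± 0.68, adjusted p = 7.74e-06). Il12b, the subunit that IL-23 shares with IL-12, had 0.344, 0.878 and 1.62 CPM in imiquimod libraries (lowest, median and highest) and was 45.3-fold (95% interval 12.3 to 379, 111 counts over the imiquimod libraries and 2 over the sham libraries) higher. Il17a was listed at 0 in all 4 sham libraries and had 0.203, 0.941 and 1.92 CPM in imiquimod libraries. With 3 counts over the sham group as the floor, it was at least 33.2-fold higher (adjusted p = 4.31e-07), and this bound, like the intervals of ratios, covers counting error only. Il17f, which is made by the same cells, lay at 3.604, 6.95 and 9.67 CPM (lowest, median and highest) in imiquimod libraries and at 0.1895, 0.0419, 0 and 0.479 CPM in sham libraries. Its log2 fold change was 5.20 ± 0.68, adjusted p = 3.24e-09, with no overlap between the groups. Il17c, an epithelial member of the family, was 26.95-fold (95% interval 7.17 to 227, 66 counts over the imiquimod libraries and 2 over the sham libraries) higher.

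Of 14 tested genes of the IL-23 and IL-17 axis 11 were higher and 2 lower, with a median of 2.06. Il17ra, the receptor subunit common to the family, had 52.96 to 75.2 CPM in imiquimod libraries, against 31.97 to 37.3 CPM in sham libraries (log2 fold change 0.89 ± 0.10), and Il17rc was higher by 0.55 ± 0.06. Il17re, the receptor of IL-17C, was not called (0.10 ± 0.08, adjusted p = 0.256). Il12rb1, a receptor subunit shared by IL-12 and IL-23, was lower (-0.68 ± 0.30, adjusted p = 0.0416). That call was lost under DESeq2 (adjusted p = 0.059), with no filter (adjusted p = 0.0713) and with only the groups compared (adjusted p = 0.0669), which leaves 1 lower member of the axis. It was also lost without imiquimod library 25, 26 or 28 or sham library 20 or 22 (-0.69 to -0.38, adjusted p = 0.0516 to 0.307). Ccr6 lay at 0.432, 0.906 and 1.33 CPM (lowest, median and highest) in imiquimod libraries and at 0.379, 0.377, 0.0831 and 0.0799 CPM in sham libraries, and was higher by 1.89 ± 0.49 (adjusted p = 0.000583). These levels rest on 107 counts over the imiquimod libraries and 23 over the sham libraries. Ccl20, its ligand, had a lowest, median and highest value of 1.78, 5.15 and 16.5 CPM in imiquimod libraries, against 0.265, 0.629, 0.291 and 0.1998 CPM in sham libraries. Library 27 held the highest Ccl20 value and all 6 imiquimod libraries lay above sham (log2 fold change 4.18 ± 0.81, adjusted p = 1.29e-05).

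**Figure D2:**
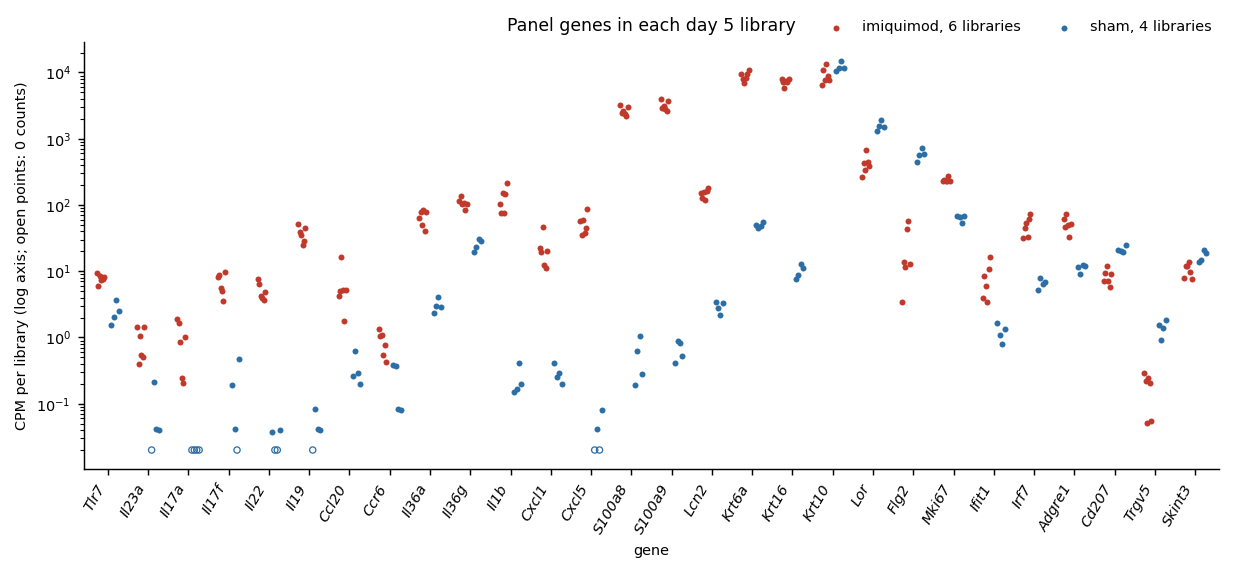
CPM on a log axis of panel genes in each day 5 library, imiquimod in red left of sham in blue, with open points at the foot for libraries with 0 counts. The groups do not overlap for any gene drawn except Krt10, whose imiquimod libraries reach from 6532 to 13649 CPM and whose sham libraries reach from 10516 to 14878 CPM.

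Among IL-20 subfamily genes, 4 of 9 tested were higher and 4 lower, and the lower count became 2 under DESeq2 and with no filter. Il19 had a lowest, median and highest value of 25.1, 37.2 and 50.97 CPM in imiquimod libraries, against 0, 0.0839, 0.0415 and 0.03996 CPM in sham libraries (log2 fold change 9.65 ± 1.19, adjusted p = 1.25e-09). Il22, the T cell cytokine that acts on keratinocytes, had 3.71, 4.49 and 7.67 CPM in imiquimod libraries and was 256-fold (95% interval 70.7 to 2122, 628 counts over the imiquimod libraries and 2 over the sham libraries) higher. Il24 was listed at 0 in all sham libraries, had 2.45, 4.14 and 8.697 CPM in imiquimod libraries and was at least 154-fold higher. Il20 itself was not called (-0.44 ± 0.66, adjusted p = 0.562). The receptor subunits Il20ra and Il20rb were lower (-2.15 ± 0.17 and -1.23 ± 0.12), with 84.5 to 144 CPM in imiquimod libraries, against 249 to 302 CPM in sham libraries for Il20rb. Il22ra1, the IL-22 receptor of epithelia, was lower (-0.29 ± 0.13) with overlapping groups (adjusted p = 0.0426), and the decoy receptor Il22ra2 at -0.37 ± 0.17 (adjusted p = 0.0483). The Il22ra1 call was lost under DESeq2 (adjusted p = 0.0653), with no filter (adjusted p = 0.0687) and with only the groups compared (adjusted p = 0.132), and without imiquimod library 27, 29 or 30 or sham library 21 or 22 (-0.29 to -0.11, adjusted p = 0.0581 to 0.457). The Il22ra2 call was lost under DESeq2 (adjusted p = 0.0733), under RLE factors (adjusted p = 0.0565) and with no filter (adjusted p = 0.0769), and without imiquimod library 25, 27 or 29 or sham library 20, 21 or 22 (-0.38 to -0.28, adjusted p = 0.0645 to 0.181). Il10rb, the subunit that IL-22 shares with IL-10, was higher by 0.52 ± 0.10.

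In the IL-1 and IL-36 family 14 of 18 tested genes were higher, with a median of 1.18. Il1b, the cytokine of activated myeloid cells, had a lowest, median and highest value of 75.6, 125 and 217 CPM in imiquimod libraries, against 0.152, 0.168, 0.415 and 0.1998 CPM in sham libraries, a log2 fold change of 9.07 ± 1.43 (adjusted p = 3.26e-07). The epidermal cytokines Il36a, Il36g and Il36b were higher by 4.42 ± 0.27, 2.09 ± 0.13 and 1.54 ± 0.16. Il36a lay at 40.3, 69.95 and 85.3 CPM (lowest, median and highest) in imiquimod libraries and at 2.35, 3.02, 4.11 and 2.84 CPM in sham libraries, and Il36g had 84.1 to 136 CPM in imiquimod libraries, against 19.3 to 30.5 CPM in sham libraries. The receptor antagonist Il1rn was also higher, by 1.36 ± 0.11. Il1f10, which encodes IL-38, was the member called lower, with 0.148 to 0.687 CPM in imiquimod libraries, against 2.92 to 5.28 CPM in sham libraries (-3.30 ± 0.35). Il18, Il1r2 and Il18r1 were not called (adjusted p = 0.0595, 0.491 and 0.233).

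Of 13 other cytokines and growth factors tested, 8 were higher and 3 lower. Csf3, the granulocyte growth factor, was listed at 0 in all sham libraries, had 0.883, 1.85 and 4.05 CPM in imiquimod libraries and was at least 69.1-fold higher. Osm, a cytokine of the IL-6 family, had a lowest, median and highest value of 3.53, 6.48 and 10.5 CPM in imiquimod libraries, against 0.265, 0.126, 0.166 and 0.2397 CPM in sham libraries (5.03 ± 0.86). Il6 was higher by 6.32 ± 0.97 and Tgfb1 by 1.14 ± 0.10. Il34, the keratinocyte factor that sustains Langerhans cells, was lower (-1.60 ± 0.12) with 21.3 to 28.3 CPM in imiquimod libraries, against 67.4 to 83.6 CPM in sham libraries. Flt3l and Kitl, which sustain dendritic cells and mast cells or melanocytes, were lower (-1.39 ± 0.15 and -0.64 ± 0.08). Tslp and Il11 were not called (adjusted p = 0.493 and 0.295), and Csf2, Ifng, Il4 and Il13 held too few counts to be tested. Ligands of the EGF receptor were divided: Areg, Epgn, Hbegf and Tgfa were higher by 7.05 ± 1.09, 6.25 ± 0.79, 2.91 ± 0.38 and 1.61 ± 0.20, Btc and Egf were lower (-3.02 ± 0.31 and -0.96 ± 0.16), and Ereg was not called (adjusted p = 0.358).

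Chemokines that draw neutrophils were higher in 5 of 5 tested cases, of which 1, listed at 0 in every sham library, could not have come out lower. All members together summed to 0.293 to 0.665 CPM in sham libraries, which left the others little room to come out lower. Cxcl1 had a lowest, median and highest value of 11.4, 19.9 and 47.3 CPM in imiquimod libraries, against 0.417, 0.252, 0.291 and 0.1998 CPM in sham libraries (log2 fold change 6.22 ± 0.78, adjusted p = 1.73e-09), with library 27 the highest. Cxcl3 was listed at 0 in all sham libraries, had 10.3, 17.7 and 30.2 CPM in imiquimod libraries and was at least 615-fold higher. Cxcl5 had 35.1, 50.6 and 86.3 CPM in imiquimod libraries and was 1738-fold (95% interval 595 to 8431, 6385 counts over the imiquimod libraries and 3 over the sham libraries) higher. Ppbp, a platelet chemokine of the same group, was higher by 4.04 ± 0.60. Chemokines for monocytes and T cells were higher in 12 of 15 cases, among them Ccl2 (4.43 ± 0.48), Ccl7 (4.44 ± 0.54), Ccl8 (3.45 ± 0.31) and Ccl12 (5.58 ± 0.55). Cx3cl1, the membrane-bound ligand of Cx3cr1, was lower (-1.33 ± 0.10), and Ccl11 and Ccl24 were not called (adjusted p = 0.176 and 0.775). Of the homeostatic chemokines, Cxcl13, which draws B cells, was higher by 4.31 ± 0.48 and Cxcl12 by 1.59 ± 0.14. Ccl27a, the keratinocyte chemokine for skin-homing T cells, was lower (-3.12 ± 0.22) with 1.67 to 2.99 CPM in imiquimod libraries, against 19.5 to 20.5 CPM in sham libraries.

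The sequences before the starts of 4 induced genes are shown because the pathways named above act through known DNA motifs: the chemokines Cxcl1, Cxcl3 and Ccl20, with matches to an NF-kB motif in capitals (GGG, any 2 bases, TTTCC), and Ifit1, with matches to an interferon response motif in capitals (GAAA, any 2 bases, GAAA). Each is the 250 bases before the start, 5′ to 3′ on the plus strand, from RefSeq in build GRCm38.p6, which is not the GRCm39 build of the deposited counts. They lie at chr5:90890995-90891244 (Cxcl1), chr5:90785851-90786100 (Cxcl3), chr1:83116516-83116765 (Ccl20) and chr19:34640639-34640888 (Ifit1). A motif on the minus strand appears as its reverse complement.
Cxcl1: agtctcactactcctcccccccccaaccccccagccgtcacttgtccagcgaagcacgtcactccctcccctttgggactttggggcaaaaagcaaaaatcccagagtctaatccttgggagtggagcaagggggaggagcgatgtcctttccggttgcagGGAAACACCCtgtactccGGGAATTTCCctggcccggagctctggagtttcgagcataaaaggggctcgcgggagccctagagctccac
Cxcl3: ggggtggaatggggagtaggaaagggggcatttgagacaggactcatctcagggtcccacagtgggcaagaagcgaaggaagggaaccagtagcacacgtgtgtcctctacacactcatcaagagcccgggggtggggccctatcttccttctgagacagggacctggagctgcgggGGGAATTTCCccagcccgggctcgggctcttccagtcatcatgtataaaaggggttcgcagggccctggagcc
Ccl20: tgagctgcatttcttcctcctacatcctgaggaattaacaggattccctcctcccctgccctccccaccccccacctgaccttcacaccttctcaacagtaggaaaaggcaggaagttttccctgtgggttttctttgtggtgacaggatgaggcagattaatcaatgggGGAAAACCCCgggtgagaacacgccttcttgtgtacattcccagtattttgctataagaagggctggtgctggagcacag
Ifit1: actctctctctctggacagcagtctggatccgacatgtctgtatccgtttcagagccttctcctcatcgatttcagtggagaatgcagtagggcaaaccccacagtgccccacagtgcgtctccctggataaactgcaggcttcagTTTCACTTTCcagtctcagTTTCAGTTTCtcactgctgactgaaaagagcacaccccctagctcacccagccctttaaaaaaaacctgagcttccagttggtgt
Both strands were searched in windows of 250 bases. The NF-kB motif stood in 1.65% of the windows of all 27025 genes with one, in 3 of 5 matched neutrophil chemokines (Cxcl1, Cxcl2 and Cxcl3) and in 3 of 10 matched NF-kB feedback genes (Nfkbia, Nfkb2 and Tnfaip3). The interferon motif stood in 3.46% of all windows and in 8 of 16 matched type I interferon genes. These matches describe the letters and show no binding, and their part in the changes was not tested.

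Genes of the type I interferon response were higher in 17 of 20 cases and lower in none, with a median of 2.57. Irf7, the regulator that amplifies the response, had a lowest, median and highest value of 31.2, 48.99 and 72.5 CPM in imiquimod libraries, against 5.23, 7.798, 6.52 and 6.83 CPM in sham libraries (log2 fold change 2.90 ± 0.38, adjusted p = 7.03e-09). Ifit1, an inhibitor of viral translation whose promoter is printed above, lay at 3.48, 7.24 and 16.2 CPM (lowest, median and highest) in imiquimod libraries and at 1.67, 1.09, 0.789 and 1.36 CPM in sham libraries, and all imiquimod libraries lay above sham (2.72 ± 0.53, adjusted p = 1.55e-05). The nucleotide sensors Oas1a, Oas2 and Oasl1 were higher by 3.97 ± 0.53, 2.85 ± 0.34 and 3.99 ± 0.47. Ifit2, Ifit3b and Cmpk2 were not called (adjusted p = 0.0677, 0.0511 and 0.599). Summed over the list, values were 137 to 344 CPM in imiquimod libraries, against 43.8 to 53.7 CPM in sham libraries.

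Genes that interferon gamma induces were divided. Of 19 tested, 7 were higher, 4 were lower and 8 were not called, with a median of 0.25. H2-D1, a class I molecule, was higher by 0.70 ± 0.09, and the immunoproteasome subunit Psmb8 by 1.02 ± 0.29. The guanylate-binding protein Gbp3 was higher, with 10.01 to 14.96 CPM in imiquimod libraries, against 3.88 to 5.73 CPM in sham libraries (adjusted p = 0.000362). The class II genes H2-Aa, H2-Ab1 and H2-Eb1 were lower (-0.39 ± 0.14, -0.46 ± 0.13 and -0.41 ± 0.13), with groups that overlapped. The H2-Aa call was lost with only the groups compared (adjusted p = 0.0537) and without imiquimod library 29 (-0.29, adjusted p = 0.0619). Their chaperone Cd74 had 229 to 444 CPM in imiquimod libraries, against 462 to 539 CPM in sham libraries and was lower (-0.52 ± 0.13) without overlap. Irf1, Ciita, Tap1 and Psmb9 were not called (adjusted p = 0.131, 0.887, 0.455 and 0.479).

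Markers of neutrophils and macrophages were higher in treated ears. In a punch of whole ear, more cells of a type and more RNA per cell cannot be told apart, and this holds for every marker list below. Neutrophil genes were higher in 13 of 13 tested cases, with a median of 6.89 (6.46 with genes listed at 0 in sham placed at their bound). Of the 13, 3 were listed at 0 in every sham library and could not have come out lower. Others held as few as 2 counts over the sham libraries, which left hardly any room for a lower call. Under DESeq2 the list held 14 higher members and 1 lower. Ly6g, the surface marker of mouse neutrophils, was listed at 0 in sham ears, had 0.541, 1.07 and 1.62 CPM in imiquimod libraries and was at least 34.3-fold higher. Cxcr2, the receptor of the neutrophil chemokines, had 29.7 to 52.7 CPM in imiquimod libraries, against 1.55 to 3.16 CPM in sham libraries (4.30 ± 0.35). Csf3r, the receptor of granulocyte growth factor, had 56.4 to 118 CPM in imiquimod libraries, against 0.671 to 1.62 CPM in sham libraries (6.46 ± 0.70). Fpr2, a receptor for formylated peptides, was at least 277-fold higher. The granule genes of neutrophil precursors Mpo, Elane and Prtn3 held too few counts to be tested, with 2 counts of Mpo over the imiquimod libraries and 25 over the sham libraries. The list summed to 224 to 523 CPM in imiquimod libraries, against 22.01 to 33.96 CPM in sham libraries.

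Macrophage and monocyte genes were higher in 17 of 18 cases, with a median of 2.06. Adgre1, which encodes the marker F4/80, had a lowest, median and highest value of 33.4, 50.1 and 73.8 CPM in imiquimod libraries, against 11.5, 9.18, 12.2 and 12.1 CPM in sham libraries (log2 fold change 2.22 ± 0.20, adjusted p = 1.39e-13). Itgam, an integrin that neutrophils also carry, was higher by 4.03 ± 0.34, the complement gene C1qb by 2.15 ± 0.16 and the lysosomal gene Cd68 by 1.98 ± 0.16. Cx3cr1 was the member not called (0.40 ± 0.19, adjusted p = 0.0646). Adhesion molecules for leukocyte entry were higher in 8 of 9 cases, with Selp at 2.88 ± 0.28 and Sele at 2.62 ± 0.31, and Icam2 was not called (0.47 ± 0.23, adjusted p = 0.0677). The endothelial markers themselves split into 5 higher and 4 lower of 13, or 3 and 8 under library totals. The main split lies close to the shares over all tested genes (34.6% higher and 35.9% lower). Lyve1 and Pdpn of lymphatic vessels were higher by 0.80 ± 0.11 and 1.37 ± 0.20, and the tight junction gene Cldn5 was lower (-1.45 ± 0.11).

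T cell genes moved in both directions. Of 14 tested genes of alpha beta T and cytotoxic lymphocytes 5 were higher and 5 lower, or 5 and 6 under library totals. Both main shares lie close to those over all tested genes (34.6% higher and 35.9% lower), so the counts set this list apart in neither direction. Foxp3, the factor of regulatory T cells, had 1.37 to 3.73 CPM in imiquimod libraries, against 0.0799 to 0.293 CPM in sham libraries (3.66 ± 0.57), and the costimulator Icos had 1.33 to 4.43 CPM in imiquimod libraries, against 0.125 to 0.303 CPM in sham libraries (3.56 ± 0.43). Gzmb, the cytotoxic protease, was higher by 3.86 ± 0.53, and the receptor constant region Trbc2 by 0.94 ± 0.14. The invariant chains Cd3d, Cd3e and Cd3g, carried by all T cells, were lower (-1.71 ± 0.28, -1.88 ± 0.17 and -1.69 ± 0.16). Cd3e had 2.01 to 4.03 CPM in imiquimod libraries, against 10.8 to 13.6 CPM in sham libraries. Cd4 and Trac were not called (adjusted p = 0.0749 and 0.0983), and Cd8a held too few counts to be tested.

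Genes of the resident gamma delta T cells of mouse epidermis were lower. Trgv5, the variable segment that marks these dendritic epidermal T cells in a common nomenclature, had a lowest, median and highest value of 0.0504, 0.211 and 0.295 CPM in imiquimod libraries, against 1.52, 0.922, 1.37 and 1.84 CPM in sham libraries. No imiquimod library reached the lowest sham library (log2 fold change -2.93 ± 0.45, adjusted p = 1.13e-07). The segment Trdv4 was lower (-2.20 ± 0.35), the constant region Trgc1 at -2.13 ± 0.20 and the chemokine Xcl1 at -4.43 ± 0.52. Scart2, known from IL-17-producing gamma delta T cells of the dermis in mice, was higher, with 3.13 to 4.68 CPM in imiquimod libraries, against 1.22 to 2.04 CPM in sham libraries (1.14 ± 0.30). Blk, a kinase of the same cells and of B cells, was higher by 2.16 ± 0.50, and Scart1 was not called (0.73 ± 0.56, adjusted p = 0.243). Fcer1g, which many myeloid cells also express, was higher by 2.42 ± 0.20. Over the 12 tested genes 7 were lower and 3 higher.

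The Skint genes, keratinocyte surface proteins of which Skint1 selects the dendritic epidermal T cells in the thymus, were lower in 11 of 11 cases. Their median was -2.22, and no imiquimod library overlapped a sham library for any of the 11. Skint3 had a lowest, median and highest value of 7.72, 10.8 and 13.7 CPM in imiquimod libraries, against 13.99, 14.8, 20.7 and 18.9 CPM in sham libraries (log2 fold change -0.70 ± 0.17, adjusted p = 0.000208). Skint7 had 0.148 to 1.08 CPM in imiquimod libraries, against 5.15 to 6.67 CPM in sham libraries (-3.88 ± 0.33), and Skint9 had 4.6997 to 14.3 CPM in imiquimod libraries, against 61.9 to 73.9 CPM in sham libraries (-2.97 ± 0.25). The summed level of the family was 27.6 to 58.5 CPM in imiquimod libraries, against 159 to 194 CPM in sham libraries.

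Langerhans cell and dendritic cell genes were divided, 4 higher and 4 lower of 12, or 3 and 5 under library totals. The main counts lie close to the shares over all tested genes (34.6% higher and 35.9% lower). Cd207, which encodes langerin, had a lowest, median and highest value of 5.79, 8.15 and 11.99 CPM in imiquimod libraries, against 20.7, 19.9, 19.5 and 24.9 CPM in sham libraries, so the groups did not overlap (log2 fold change -1.34 ± 0.16, adjusted p = 1.39e-10). Epcam, which Langerhans cells and some epithelial cells carry, was lower (-0.61 ± 0.10), and Cd209a of dermal dendritic cells at -0.91 ± 0.21. Ccr7, the receptor with which dendritic cells leave for lymph nodes, was higher by 3.24 ± 0.37 and Fscn1, an actin-bundling protein of mature dendritic cells, by 2.99 ± 0.21. Siglech, a marker of plasmacytoid dendritic cells, held few counts and was not called (-0.79 ± 0.66, adjusted p = 0.283). Among mast cell genes Hdc, which makes histamine and is also induced in neutrophils, was higher by 4.13 ± 0.58 and the protease Cma1 by 0.52 ± 0.13. Kit was lower (-0.84 ± 0.11) and the receptor Mrgprb2 at -2.15 ± 0.23, and Cpa3 and Tpsb2 were not called (adjusted p = 0.203 and 0.223).

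All 4 stress keratins, which the epidermis is known to make when wounded or inflamed, were higher. Krt16 had a lowest, median and highest value of 5904, 7343 and 8057 CPM in imiquimod libraries, against 7.54, 8.89, 12.7 and 11.2 CPM in sham libraries (log2 fold change 9.51 ± 0.80, adjusted p = 3.24e-14). Krt6a lay at 7002, 8776 and 10777 CPM (lowest, median and highest) in imiquimod libraries and at 50.6, 45.2, 48.1 and 54.4 CPM in sham libraries (7.47 ± 0.71, adjusted p = 1.25e-12). Krt17 was higher by 2.78 ± 0.25 and Krt6b by 12.40 ± 1.55. Antimicrobial and alarmin genes were higher in 14 of 16 tested cases, with a median of 4.75. S100a8, the subunit of calprotectin made by neutrophils and activated keratinocytes, had a lowest, median and highest value of 2183, 2530.3 and 3209.8 CPM in imiquimod libraries, against 0.1895, 0.629, 1.04 and 0.2797 CPM in sham libraries (12.28 ± 1.13, adjusted p = 4.53e-13). Its partner S100a9 was higher by 12.24 ± 1.10, and the iron-binding protein Lcn2 had 120.05 to 178 CPM in imiquimod libraries, against 2.16 to 3.41 CPM in sham libraries (5.67 ± 0.44).

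Defensins showed the same contrast. Defb3 was listed at 0 in all sham libraries, had 7.56, 9.27 and 16.9 CPM in imiquimod libraries and was at least 344-fold higher. Defb4 had 10.2 to 19.6 CPM in imiquimod libraries, against 0 to 0.168 CPM in sham libraries (8.24 ± 0.84, adjusted p = 6.88e-12), and its 4 sham counts all lay in library 20. The protease inhibitor Slpi was higher by 5.16 ± 0.35 and the chitinase-like Chil1 by 4.30 ± 0.28. Wfdc21 was the member called lower, with 3.099 to 6.75 CPM in imiquimod libraries, against 29.3 to 38.9 CPM in sham libraries (-2.76 ± 0.21). Ltf was not called (-0.57 ± 0.87, adjusted p = 0.565), and Camp held too few counts to be tested. The acute phase protein Saa3 had 192 to 379.6 CPM in imiquimod libraries, against 0 to 0.0831 CPM in sham libraries (12.25 ± 1.21). Acute phase and complement genes were higher in 13 of 17 cases, with Hp at 2.89 ± 0.28 and Cfb at 2.72 ± 0.21, and Orm1 lower (-1.54 ± 0.15).

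Genes of the cornified envelope moved by family. The small proline-rich proteins, which are crosslinked into the cornified envelope, were higher in 13 of 14 tested cases, with a median of 9.39 (9.18 with genes listed at 0 in sham at their bound). Of these, 2 were listed at 0 in every sham library and could not have come out lower, and another held 3 counts over the sham libraries. Sprr2d had 376 to 657 CPM in imiquimod libraries, against 0.114 to 0.377 CPM in sham libraries (11.08 ± 0.78) and Sprr1b 690.3 to 1202 CPM in imiquimod libraries, against 1.63 to 5.03 CPM in sham libraries (8.09 ± 0.58). Sprr4 was not called (-0.54 ± 0.38, adjusted p = 0.203). Group 3 late cornified envelope genes, which are expressed on injury, were higher in 6 of 6 cases, with Lce3c at 4.86 ± 0.37 and Lce3f at 7.07 ± 0.66. Group 1 genes of normal epidermis were lower in 11 of 14 and higher in none. Lce1m, the lowest of them, had 3.001 to 11.3 CPM in imiquimod libraries, against 97.6 to 164 CPM in sham libraries (-4.38 ± 0.38), and Lce1e, Lce1g and Lce1k were not called (adjusted p = 0.107, 0.47 and 0.731).

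The stefin A cluster, mouse inhibitors of cysteine proteases, was higher in 10 of 10 tested cases. Of the 10, 4 were listed at 0 in every sham library and could not have come out lower, and another held 1 count over the sham libraries. Cstdc5 had a lowest, median and highest value of 824, 1107 and 1148 CPM in imiquimod libraries, against 0.114, 0.2096, 0.166 and 0 CPM in sham libraries (13.03 ± 1.15, adjusted p = 1.43e-13). Stfa3 had 193 to 385 CPM in imiquimod libraries, against 0.3596 to 0.706 CPM in sham libraries (9.25 ± 0.59). Csta3 and Sprr2f, both listed at 0 in all sham libraries, were at least 608-fold and 1614-fold higher. Kallikreins, the proteases of desquamation, and their inhibitors were higher in 10 of 13 cases. Klk13 had 279.6 to 372 CPM in imiquimod libraries, against 2.05 to 2.797 CPM in sham libraries (7.12 ± 0.42) and Klk6 204 to 318 CPM in imiquimod libraries, against 7.28 to 12.2 CPM in sham libraries (4.80 ± 0.37). Klk5 and the inhibitor Spink5 were lower (-0.43 ± 0.17 and -0.39 ± 0.12), with overlapping groups. The Klk5 call was lost with only the groups compared (adjusted p = 0.0857), and without imiquimod library 25 or 27 or sham library 21 (-0.36 to -0.28, adjusted p = 0.0626 to 0.173). Serpins were divided too: Serpinb3a was higher by 6.30 ± 0.45, while Serpina3b lay at 1.399, 1.92 and 5.399 CPM (lowest, median and highest) in imiquimod libraries and at 162, 144, 124 and 164 CPM in sham libraries and was lower (-5.87 ± 0.34).

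**Figure D3:**
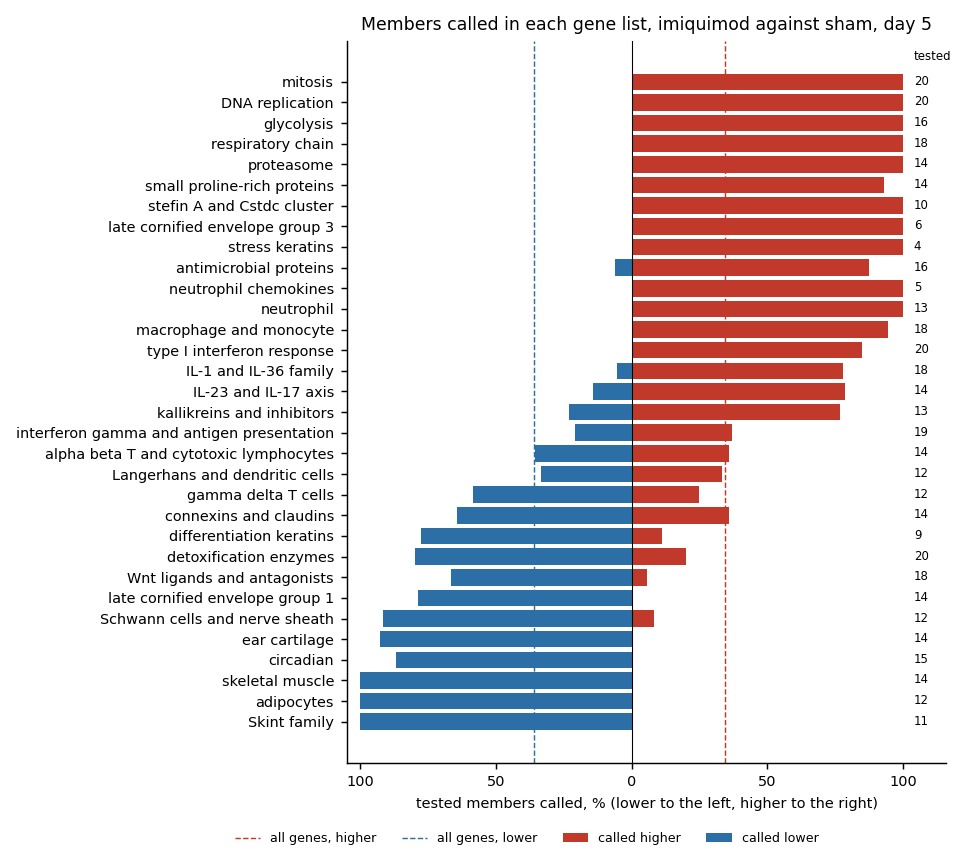
Percent of the tested members of each gene list called higher (red, to the right) or lower (blue, to the left) in imiquimod against sham ears at day 5, with the number tested at the right and the shares over all tested genes as dashed lines (34.6% higher, 35.9% lower). Lists of the cell cycle, glycolysis and epidermal activation lie almost wholly on the higher side, and the Skint, adipocyte and muscle lists wholly on the lower side.

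Of 9 tested differentiation keratins 7 were lower, 1 was higher (Krt1) and Krt79 was not called (-0.16 ± 0.12, adjusted p = 0.229). Krt77, a keratin of the upper epidermis, had a lowest, median and highest value of 3.74, 5.35 and 6.65 CPM in imiquimod libraries, against 136, 499, 382 and 556 CPM in sham libraries (log2 fold change -6.19 ± 0.46, adjusted p = 6.6e-16). The lowest sham value, in library 19, was still above every imiquimod library. Krt24 had 6.84 to 34.7 CPM in imiquimod libraries, against 294 to 381 CPM in sham libraries (-4.32 ± 0.38), and Krt80 was lower (-1.75 ± 0.13). Krt1 was higher, with 6018 to 12331 CPM in imiquimod libraries, against 416 to 777 CPM in sham libraries (3.92 ± 0.21). Its partner Krt10 lay at 6532, 8345 and 13649 CPM (lowest, median and highest) in imiquimod libraries and at 10516, 11618, 14878 and 11619 CPM in sham libraries. The groups overlapped, and the call (log2 fold change -0.39 ± 0.17, adjusted p = 0.0318) was lost without sham library 21 (-0.28, adjusted p = 0.162) and without imiquimod library 25, 27 or 30 (adjusted p = 0.093, 0.0694 and 0.0705). It was also lost with no filter (adjusted p = 0.0541) and with only the groups compared (adjusted p = 0.101).

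The filaggrin family and the envelope precursors split by member. Flg2 had a lowest, median and highest value of 3.39, 13.3 and 56.4 CPM in imiquimod libraries, against 441, 564, 735 and 596 CPM in sham libraries (log2 fold change -4.63 ± 0.48, adjusted p = 1.17e-11), and Lor, the main envelope protein of normal skin, lay at 261, 409.6 and 671 CPM (lowest, median and highest) in imiquimod libraries and at 1288, 1563, 1919 and 1510.3 CPM in sham libraries (-1.90 ± 0.26, adjusted p = 1.72e-08). Rptn, a related protein of the granular layer, was higher, with 180.3 to 459 CPM in imiquimod libraries, against 3.26 to 5.75 CPM in sham libraries (6.01 ± 0.42). Casp14, a protease that processes filaggrin, was higher by 3.08 ± 0.15, the crosslinking enzyme Tgm3 by 3.08 ± 0.19 and Cnfn by 2.42 ± 0.18. Hrnr and Cdsn were lower (-0.52 ± 0.19 and -0.48 ± 0.18) with overlapping groups, Scel at -1.31 ± 0.12 and Ppl at -0.79 ± 0.09 without overlap. The Hrnr call was lost with only the groups compared (adjusted p = 0.063) and without sham library 21 (-0.41, adjusted p = 0.0702), and the Cdsn call with only the groups compared (adjusted p = 0.105) and without imiquimod library 25 or 27 or sham library 21 (-0.40 to -0.34, adjusted p = 0.0501 to 0.12). In all, 11 of 18 genes were higher and 6 lower. Of the lipid barrier genes, Degs2 and Cers3 for ceramides were higher by 2.60 ± 0.23 and 1.83 ± 0.14, while Alox12e was lower (-3.56 ± 0.34) and Elovl4 was not called (0.03 ± 0.11, adjusted p = 0.824).

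Junctions and the basal layer changed as well. Of 14 connexin and claudin genes 5 were higher and 9 lower, with a median of -0.77. Gjb2, a connexin known from hyperproliferative epidermis, had 851 to 1323 CPM in imiquimod libraries, against 12.8 to 18.03 CPM in sham libraries (6.07 ± 0.52). Its relative Gjb6 had 73.7 to 122 CPM in imiquimod libraries, against 1.08 to 2.16 CPM in sham libraries (6.02 ± 0.34). Cldn1, a tight junction protein needed for the skin barrier, was lower (-0.83 ± 0.08), Cldn23 at -2.69 ± 0.24 and Gjb5 at -1.51 ± 0.15. The basal keratin Krt14 was higher by 1.86 ± 0.09, while the basal and bulge keratin Krt15 had 84.5 to 231 CPM in imiquimod libraries, against 1879 to 2395 CPM in sham libraries (-3.80 ± 0.24). Of 12 basal keratinocyte and hemidesmosome genes 4 were higher, 7 were lower and Itgb4 was not called (adjusted p = 0.977). The anchoring genes Col17a1, Col7a1 and Dst were lower (-1.17 ± 0.07, -2.10 ± 0.13 and -1.76 ± 0.11), and the integrin gene Itga6 was higher by 0.72 ± 0.09. Of the desmosomal genes, Dsc2 and Dsg3 were higher by 3.52 ± 0.27 and 2.03 ± 0.17 and Dsg1c was lower (-2.21 ± 0.23).

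All tested genes of the mitosis and DNA replication lists were higher. Mki67, a marker of cycling cells, had a lowest, median and highest value of 229, 232 and 278 CPM in imiquimod libraries, against 68.000, 65.7, 54.4 and 68.8 CPM in sham libraries (log2 fold change 1.91 ± 0.15, adjusted p = 1.63e-15). Mitosis genes were higher in 20 of 20 cases, with a median of 2.11, and DNA replication genes in 20 of 20, with a median of 1.33. No sham library reached an imiquimod library for any of these 40 genes. Tpx2, a spindle assembly factor, had 89.2 to 99.7 CPM in imiquimod libraries, against 14.3 to 20.01 CPM in sham libraries (2.41 ± 0.15), and Cdk1, the mitotic kinase, 52.5 to 67.01 CPM in imiquimod libraries, against 13.1 to 13.6 CPM in sham libraries (2.12 ± 0.15). Of the replicative helicase, Mcm5 was higher by 2.39 ± 0.12 and Mcm6 by 1.32 ± 0.07.

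Genes of energy supply and protein turnover were higher too. All 16 glycolysis genes were higher, with a median of 1.79. Pkm, pyruvate kinase, had a lowest, median and highest value of 2404, 2519 and 2551 CPM in imiquimod libraries, against 699, 663, 754 and 714 CPM in sham libraries (log2 fold change 1.82 ± 0.08, adjusted p = 9.47e-25). The kinase gene Pgk1 had 539 to 577 CPM in imiquimod libraries, against 103.6 to 113 CPM in sham libraries (2.38 ± 0.11). Enolase, Eno1, had 1276 to 1339 CPM in imiquimod libraries, against 246 to 286 CPM in sham libraries (2.29 ± 0.10). Lactate dehydrogenase, Ldha, had 1333 to 1417 CPM in imiquimod libraries, against 321 to 334 CPM in sham libraries (2.06 ± 0.09). In all 4 the groups lay far apart beside the spread within each. Of the respiratory chain 18 of 18 genes were higher with a median of 0.53, and 13 under library totals. Proteasome genes were higher in 14 of 14 cases with a median of 0.81, and 13 under library totals. Chaperones and unfolded protein response genes were higher in 14 of 16. For ribosomal proteins the direction depends on the scaling: 14 were higher and 2 lower with TMM factors, and 5 and 5 with library totals. The same holds for cholesterol synthesis, with 9 higher and 3 lower against 4 and 5.

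Hypoxia and oxidative stress genes were mostly higher. Of 14 hypoxia genes 10 were higher, among them Hif1a itself (1.92 ± 0.18) and Car12, a carbonic anhydrase (2.08 ± 0.09). Ddit4 and P4ha2 were lower (-0.79 ± 0.13 and -0.40 ± 0.09), and Bnip3 and Ndrg1 were not called (adjusted p = 0.527 and 0.837). NRF2 and antioxidant genes were higher in 13 of 15 cases, with Gpx2 at 4.30 ± 0.27 and Txn1 at 1.36 ± 0.07. The metallothioneins Mt1 and Mt2 were higher by 1.27 ± 0.11 and 1.29 ± 0.13, and Mt4, the form of stratified epithelium, was lower (-2.16 ± 0.31). Detoxification enzymes were lower in 16 of 20 cases, with a median of -1.502. Ces1d, a carboxylesterase, had a lowest, median and highest value of 2.95, 4.68 and 6.58 CPM in imiquimod libraries, against 46.6, 49.4, 43.7 and 48.9 CPM in sham libraries (-3.37 ± 0.17, adjusted p = 3.73e-22). Gsta4, a glutathione transferase for products of lipid peroxidation, went the other way, with 263 to 389 CPM in imiquimod libraries, against 5.32 to 6.43 CPM in sham libraries (5.81 ± 0.48).

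Eicosanoid genes were divided, 6 higher and 8 lower of 16. Ptgs2 and Ptges, which make prostaglandin E2, were higher by 4.69 ± 0.64 and 2.06 ± 0.14, as was Alox5ap, the activator of 5-lipoxygenase (2.09 ± 0.19). The phospholipases Pla2g4d and Pla2g4e were higher by 4.97 ± 0.61 and 3.47 ± 0.23. Ltc4s was lower (-1.83 ± 0.22), Ptgis at -0.82 ± 0.09 and Alox12 at -0.93 ± 0.14. Of 12 tested matrix metalloproteinases and inhibitors, 7 were higher and 4 lower. The metalloproteinases Mmp13 and Mmp19 and the inhibitor Timp1 were higher by 5.02 ± 0.75, 3.17 ± 0.35 and 4.58 ± 0.49. Timp3 and Timp4 were lower (-1.30 ± 0.09 and -2.12 ± 0.16). Tnc, a matrix protein of wounds, had 776 to 1422 CPM in imiquimod libraries, against 79.1 to 94.6 CPM in sham libraries (3.73 ± 0.35), whereas Col1a1 and Postn were not called (adjusted p = 0.913 and 0.635).

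Markers of fat, muscle, cartilage, nerve sheath and sebaceous gland were mostly lower, and those of hair and pigment cells less so. Adipocyte genes were lower in 12 of 12 cases (median -1.56), with Adipoq at 11.9 to 18.7 CPM in imiquimod libraries, against 37.4 to 44.1 CPM in sham libraries (-1.49 ± 0.15). Skeletal muscle genes were lower in 14 of 14 (median -1.35), with the calcium pump Atp2a1 at 336 to 578 CPM in imiquimod libraries, against 1126 to 1707 CPM in sham libraries (-1.58 ± 0.17). Cartilage genes were lower in 13 of 14 (median -1.19), with Sox9 at -1.42 ± 0.12, and Col2a1 was not called (0.37 ± 0.22, adjusted p = 0.132). Genes of Schwann cells and the nerve sheath were lower in 11 of 12 (median -1.19), with S100b at -2.51 ± 0.15. Erbb3 was the member called higher (0.22 ± 0.06), a call lost under library totals. Sebaceous gland genes were lower in 10 of 14, with Scd1 at 1677 to 2524 CPM in imiquimod libraries, against 5749.5 to 8207 CPM in sham libraries (-1.86 ± 0.13). Melanocyte genes were lower in 4 of 8 and hair genes in 3 of 8, and the other tested members of both lists were not called. The hair share lies close to the 35.9% of all tested genes that were lower. The stem cell markers Lgr5 and Lgr6 were lower (-1.06 ± 0.14 and -1.99 ± 0.15). These lists lay on the lower side in imiquimod ears, where the keratin share of all counts given above was higher. The part of a larger epidermal share of the RNA in them was not tested.

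Clock genes and Wnt genes were also mostly lower. Of 15 circadian genes 13 were lower and none higher, with a median of -1.34. Hlf, an output regulator of the clock, had 23.3 to 40.6 CPM in imiquimod libraries, against 233 to 276 CPM in sham libraries (-2.93 ± 0.20), and the repressors Nr1d1 and Cry2 were lower (-1.36 ± 0.12 and -1.13 ± 0.10). Cry1 and Clock were not called (adjusted p = 0.758 and 0.573). The labels do not give the time of day at which ears were taken, so its part was not tested. Of 18 Wnt ligands and antagonists 12 were lower, with the antagonist Wif1 at 129 to 169 CPM in imiquimod libraries, against 566 to 682 CPM in sham libraries (-2.10 ± 0.11) and Wnt10b at -3.13 ± 0.32. Wnt4 was higher by 0.71 ± 0.08, and Wnt5a, Wnt10a and Sfrp1 were not called (adjusted p = 0.0866, 0.97 and 0.817).

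Outside the lists, the lowest named genes included Paqr7, a membrane progestin receptor, and P2rx2, an ATP-gated channel. Paqr7 had a lowest, median and highest value of 5.94, 8.16 and 10.5 CPM in imiquimod libraries, against 181, 198, 255 and 192 CPM in sham libraries (log2 fold change -4.65 ± 0.32, adjusted p = 5.72e-17). Tmem35a had 0.443 to 0.972 CPM in imiquimod libraries, against 11.03 to 14.4 CPM in sham libraries (-4.07 ± 0.22). P2rx2 had 0.394 to 1.44 CPM in imiquimod libraries, against 11.1 to 16.6 CPM in sham libraries (-3.96 ± 0.33), with sham library 22 the highest. No imiquimod library overlapped a sham library for any of the 3.

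The day 5 change was set against those of day 2 and day 8, each measured against its own 6 sham libraries. At day 2, 10840 genes (57.7%) were called, 29.2% of those tested higher and 28.5% lower. At day 8, 12793 (68.1%) were called, 34.5% higher and 33.6% lower. Of the 13224 genes called at day 5, 9372 were called in the same direction at day 2, 11256 at day 8 and 8669 on all 3 days. Called in the opposite direction were 180 genes at day 2 and 58 at day 8. Tested as a difference of differences, 5559 genes (29.6%) were called between days 5 and 2. The change was higher at day 5 for 2699 genes (14.4%) and lower for 2860 (15.2%). Between day 5 and day 8 the same test called 734 genes (3.91%), 328 higher (1.75%) and 406 lower (2.16%). The day 2 counts became 3084 and 3193 without imiquimod libraries 9 and 11 and sham library 5 of day 2, which stand apart from their groups. Library totals moved them to 1660 and 4372, while DESeq2 gave 3019 and 2744. Between days 5 and 8 DESeq2 gave 627 and 465, so which side held more calls depended on the method.

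Many inflammatory genes lay further above sham at day 5 than at day 2. S100a8 changed by 12.28 ± 1.13 at day 5 against 6.21 ± 0.70 at day 2 (difference 6.07 ± 1.26, adjusted p = 0.000243), and Krt16 by 9.51 ± 0.80 against 5.30 ± 0.54 (difference 4.21 ± 0.76, adjusted p = 3.61e-05). Tlr7 was not called at day 2 (-0.44 ± 0.26, adjusted p = 0.141), and the difference between the days was 2.10 ± 0.37, adjusted p = 1.84e-05. Of 18 macrophage genes 17 stood higher at day 5 than at day 2, as did 10 of 13 neutrophil genes and all 16 glycolysis genes. In the IL-23 and IL-17 axis this was called for only 2 of 14 genes, with 1 the other way. In the type I interferon response it was called for 4 of 20, with 0 the other way. Over all tested genes the share was 14.4%. Tpi1, triosephosphate isomerase, changed by 1.35 ± 0.06 at day 5 and 0.39 ± 0.05 at day 2 (difference 0.95 ± 0.08, adjusted p = 1.44e-11), and Pkm differed by 1.00 ± 0.10, adjusted p = 3.7e-10. Other genes were already well above sham at day 2, and no difference between the days was called for them, which does not show that they were equal. Mki67 changed by 1.66 ± 0.13 at day 2 (difference 0.25 ± 0.19, adjusted p = 0.348). For Irf7 the day 2 change was 3.16 ± 0.34 (difference -0.26 ± 0.49, adjusted p = 0.735), and for Ccl20 3.88 ± 0.55 (difference 0.31 ± 1.02, adjusted p = 0.856).

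Several genes lay further below sham at day 5 than at day 2. Flg2 was lower (-1.22 ± 0.40) at day 2 (difference -3.42 ± 0.60, adjusted p = 2.64e-05). Cd207 stood at 0.01 ± 0.14 at day 2 (difference -1.35 ± 0.21, adjusted p = 3.03e-06) and was not called there (adjusted p = 0.938). The change of Skint genes was lower at day 5 than at day 2 in 10 of 11 cases, and Skint3 differed by -1.01 ± 0.22, adjusted p = 0.00049. For Krt77 the difference was -4.06 ± 0.56, adjusted p = 5.15e-07. For Serpina3b it was -4.17 ± 0.42, adjusted p = 1.26e-09, and for Ces1d -2.34 ± 0.22, adjusted p = 1.35e-10.

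Some genes were called in opposite directions on days 2 and 5. Haemoglobin genes were lower at day 2 and higher at day 5: Hbb-bt, an adult beta globin, had a lowest, median and highest value of 27.03, 31.2 and 53.5 CPM in imiquimod libraries, against 11.3, 7.002, 6.35 and 6.51 CPM in sham libraries at day 5 (2.22 ± 0.32, adjusted p = 5.14e-08). Its day 2 change was -2.82 ± 0.34 (difference 5.04 ± 0.47, adjusted p = 3.5e-10), and Hba-a1 behaved alike (difference 4.29 ± 0.41, adjusted p = 6.01e-10). 6 of 7 tested red cell genes stood higher at day 5 than at day 2. Sham library 19 held the highest Hbb-bt value of its group, and the part of blood left in the punches was not tested. Ndufa4l2, a mitochondrial protein induced in hypoxia, had 52.02 to 86.1 CPM in imiquimod libraries, against 17.8 to 20.02 CPM in sham libraries (1.94 ± 0.17), against a change of -0.87 ± 0.16 at day 2 (difference 2.81 ± 0.24, adjusted p = 1.44e-11). F13a1, a coagulation factor made by resident macrophages, changed by 0.96 ± 0.12 at day 5 and -0.69 ± 0.11 at day 2 (difference 1.65 ± 0.16, adjusted p = 8.92e-10). The transferrin receptor Tfrc was higher on both days, by 1.49 ± 0.08 and 0.51 ± 0.07, and its difference was 0.98 ± 0.10, adjusted p = 8.51e-10.

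**Figure D4:**
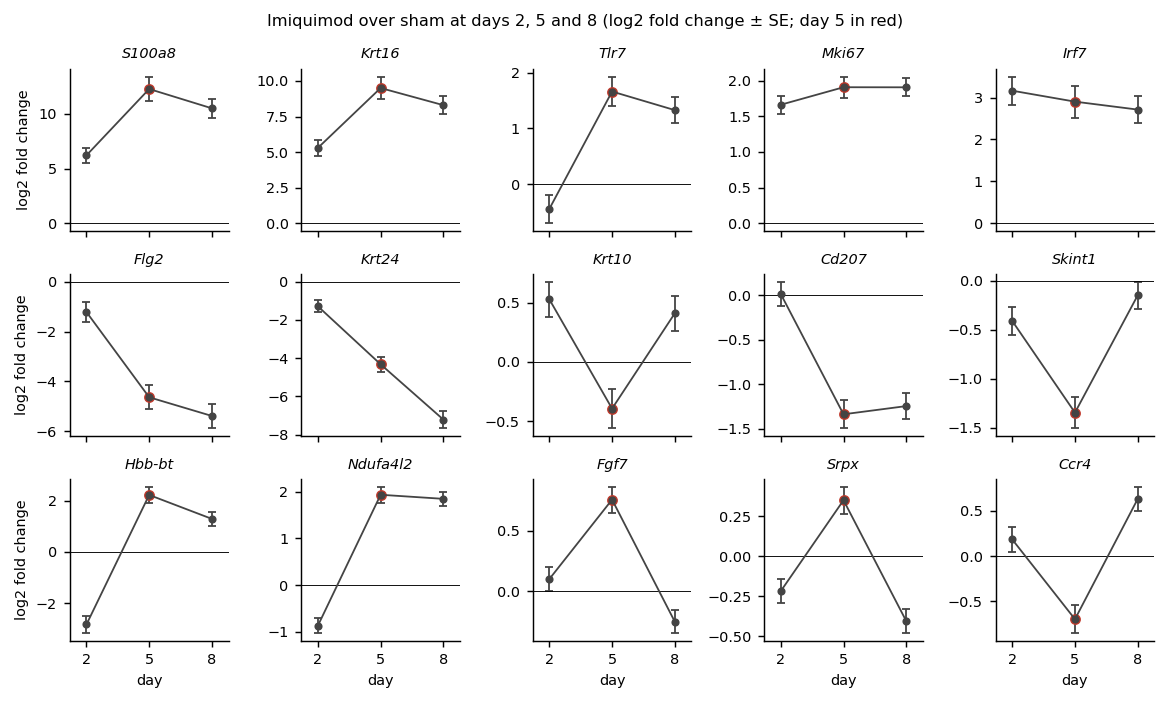
Log2 fold change of imiquimod over sham (y, its own scale in each panel) at days 2, 5 and 8 (x) for 15 genes, with standard errors and day 5 in red. S100a8, Krt16 and Tlr7 are higher at day 5 than at day 2, Mki67 and Irf7 show no called difference between days 2 and 5, Hbb-bt and Ndufa4l2 cross 0 between days 2 and 5, and Fgf7, Srpx and Ccr4 turn between days 5 and 8.

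Among the genes that differed between days 5 and 8, several were called in opposite directions. Fgf7, the fibroblast growth factor that acts on keratinocytes, had a lowest, median and highest value of 20.6, 23.9 and 26.8 CPM in imiquimod libraries, against 14.6, 14.5, 15.2 and 11.8 CPM in sham libraries at day 5 (0.75 ± 0.11, adjusted p = 1.61e-08). At day 8 it was lower (-0.25 ± 0.10, difference 1.01 ± 0.14, adjusted p = 3.24e-05). Srpx was higher by 0.35 ± 0.08 at day 5 and lower (-0.40 ± 0.08) at day 8 (difference 0.75 ± 0.11, adjusted p = 8.34e-05). Ccr4, a receptor of skin-homing and regulatory T cells, had 5.17 to 8.83 CPM in imiquimod libraries, against 10.9 to 11.9 CPM in sham libraries at day 5 (-0.70 ± 0.15) and was higher at day 8, by 0.63 ± 0.14 (difference -1.32 ± 0.21, adjusted p = 0.000121). Krt10 too was higher at day 8, by 0.41 ± 0.15 (difference -0.81 ± 0.22, adjusted p = 0.0316), though its day 5 call was lost under several settings given above. Krt24 was lower still at day 8 (-7.21 ± 0.45, difference 2.89 ± 0.59, adjusted p = 0.00453). Skint1, chosen after its values were seen, was lower at day 5 (-1.35 ± 0.16) and stood at -0.15 ± 0.14 at day 8 (difference -1.19 ± 0.21, adjusted p = 0.000854).

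Other genes were called on day 8 alone or on both days. Kif26b and Celsr2 were not called at day 5 (-0.26 ± 0.16, adjusted p = 0.152, and 0.03 ± 0.05, adjusted p = 0.664) and were higher at day 8, by 1.38 ± 0.15 and 0.49 ± 0.05 (differences -1.64 ± 0.22, adjusted p = 7.2e-06, and -0.47 ± 0.07, adjusted p = 9.21e-05). The retinoic acid hydroxylase Cyp26b1 was lower (-0.37 ± 0.08) at day 5, with overlapping groups, and at -1.25 ± 0.07 at day 8 (difference 0.89 ± 0.11, adjusted p = 7.8e-07). Robo1 was lower at day 5 (-0.41 ± 0.08) and higher at day 8 (0.33 ± 0.07, difference -0.74 ± 0.11, adjusted p = 8.34e-05). The phospholipase Pla2g4f was higher on both days, by 0.67 ± 0.08 and 1.34 ± 0.07 (difference -0.67 ± 0.11, adjusted p = 0.000236). Tfrc was higher at day 5 than at day 8 (difference 0.48 ± 0.10, adjusted p = 0.00453). At 173 genes the day 5 change lay above, and at 180 below, both of the other days. The count against day 8 depended on single libraries: without sham library 21 of day 5 it was 177 higher and 201 lower, without sham library 22 217 and 264, and without imiquimod library 30 182 and 247. Without sham library 20 of day 5, or sham library 38 of day 8, the higher count was 188 or 218.

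The 6 genes that varied most among treated ears, of those averaging 3 or more in log2 CPM, were Flg2, Krtap19-2, Serpinb6d, Krt24, Cyp2g1 and Mt4. Flg2 ran from 3.39 CPM in library 25 to 43.7 in library 28 and 56.4 in library 29. Krt24 lay at 6.84, 10.9 and 34.7 CPM (lowest, median and highest) in imiquimod libraries and at 294, 381, 375 and 299.5 CPM in sham libraries, with libraries 28 and 29 the highest. Serpinb6d ran from 1.03 CPM in library 25 to 16.5 in library 28, and Mt4 from 8.31 to 38.7 in the same libraries. All 4 stayed below every sham library. Cyp2g1, a cytochrome P450, likewise lay at 2.51, 10.6 and 16.5 CPM (lowest, median and highest) in imiquimod libraries and at 49.8, 66.4, 79.4 and 85.5 CPM in sham libraries. Krtap19-2, a hair keratin-associated protein, overlapped between groups, with 1.51 to 24.5 CPM in imiquimod libraries, against 19.4 to 40.5 CPM in sham libraries (-0.99 ± 0.38, adjusted p = 0.0198). Its call was lost without sham library 21 (-0.73, adjusted p = 0.116). Lor was also lowest in library 25 and highest in library 28.

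**Figure D5:**
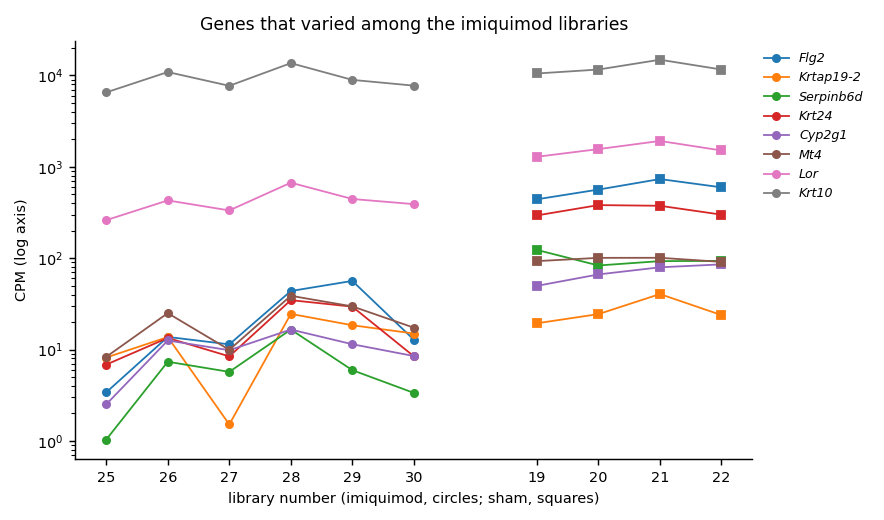
CPM on a log axis of 8 genes in each library, imiquimod 25 to 30 as circles on the left and sham 19 to 22 as squares on the right, with lines that only join the points of a gene. Library 25 is lowest or near lowest and library 28 highest or near highest for most of them among the imiquimod libraries, and only Krt10 and Krtap19-2 overlap with sham.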

How the data were processed

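Estimated counts per gene were deposited by the authors, made with salmon per the names of the deposited tables and against GRCm39 per the submitters' processing notes. The salmon version, annotation release, strand setting and filters are not stated (not given in the sources used here). The time course table lists 56941 genes and 52 libraries, whose columns were tied to samples through the titles. Values were rounded to whole numbers. Within the day 5 groups every pair of libraries differed by more than counting noise (chi-square per gene 7.12 or above), and the other experiment was not used here.

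All 9 groups were fitted together with edgeR 4.0.16 in R 4.3.3: filterByExpr, TMM factors and the robust quasi-likelihood F test, with Benjamini-Hochberg adjustment over all 18780 genes. A change was called at an adjusted p under 0.05. Differences between days were contrasts of contrasts in the same fit. Standard errors are the size of the log2 fold change divided by the square root of F. Log2 CPM used a prior count of 2. Where sham held 0 counts, 3 counts over the group gave a bound, and where it held 1 to 3 a 95% interval came from the counts. The step was tested on simulated counts in which few genes were changed, as many up as down. That setting cannot show how the scaling behaves where most genes differ, as here.

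Members and the 66 gene lists were chosen with earlier results of these data known, so lists carry counts and medians and no test of their own. The rule for named genes took the panel genes and the 10 highest and 10 lowest called genes averaging 1 or more in log2 CPM, unnamed gene models excepted. From each list it took the 4 called members of smallest adjusted p, with any that went against the list or missed the threshold. It added the 8 smallest adjusted p for each difference of days and the 6 most variable genes in imiquimod ears averaging 3 or more in log2 CPM. Outside it, and after their values were seen, Alox12, Areg, Ccl7, Cldn1, Gjb5, Il36b, Il6, Krt15, Ltc4s, Mmp13, Mmp19, Pdpn, Ptgis, Skint1 and Trdv4 were named, as were genes listed for motifs alone. Some genes of the lists are not reported here. Alternatives were DESeq2 1.42.0, RLE factors, library totals, other filters, only the groups compared, limma 3.58.1 voom with sample weights, a log2 fold change of at least 1, leaving out each library and, added after seeing the data, leaving out 3 day 2 libraries. Promoter windows came from RefSeq (GRCm38.p6). Figures used Python 3.11.15, matplotlib 3.10.9, numpy 2.4.6 and pandas 2.3.3.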

Additional observations from a re-analysis of the deposited data

Results flagged for a closer look

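Single libraries lay far from the others of their group for 11 groups of libraries, taken from 72 named genes in imiquimod and in sham ears. Of these 144 groups, those with no spread or with all values near 0 were not examined. The number examined was therefore below 144, and chance gives about 1 in 20 of those examined. Imiquimod library 27 was high for the CCR6 ligand Ccl20 (16.5 CPM against 1.78 to 5.25 CPM in the other imiquimod libraries), for Cxcl1 (47.3 CPM against 11.4 to 22.3 CPM) and for Kif26b (6.35 CPM against 3.71 to 4.67 CPM). The same library was low for the stress keratin Krt16, at 5904 CPM against 7264 to 8057 CPM. Imiquimod library 29 was high for Mki67 (278 CPM against 229 to 241 CPM). It was low for the stefin gene Cstdc5 (824 CPM against 1053 to 1148 CPM) and for F13a1 (82.6 CPM against 119.95 to 137 CPM). Imiquimod library 28, at the low end of the second principal component, was high for Serpina3j (3.63 CPM against 0.457 to 1.62 CPM). Among sham libraries, library 20 held 0.168 CPM of Defb4 and the others 0, library 22 was high for P2rx2 (16.6 CPM against 11.1 to 12.03 CPM), and library 19 was high for Hbb-bt (11.3 CPM against 6.35 to 7.002 CPM). Leaving out the library in question ended no day 5 call of these genes, among which Kif26b and F13a1 were followed only for the differences between days.

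The imiquimod effect differed between day 5 and day 2, by the contrast of the 2 effects, for 45 named genes, and it was more positive at day 5 for 26 of them. Of the 45, 8 were named for a small adjusted p in this same contrast, and others for extreme changes at day 5. The rule thus partly set the count, and the share called over all tested genes was 29.6%. Values are differences of log2 fold changes, day 5 minus day 2. Cytokine, chemokine and receptor genes were Tlr7 (2.10), Il22 (6.38), Ccr6 (1.99), Il36g (0.77), Il1b (6.63), Cxcl5 (8.18), Cxcl3 (8.39), Csf3 (6.26) and Ccr4 (-0.88), and the fitted values of Il22, Cxcl5, Cxcl3 and Csf3, with 0 to 3 sham counts, depend on the prior count. Antimicrobial and stress genes were S100a8 (6.07), S100a9 (5.95), Lcn2 (2.73), Krt6a (2.96), Krt6b (7.47), Krt16 (4.21), Cstdc5 (7.42) and Stfa1 (6.29). Genes of normal epidermis were Krt10 (-0.92), Krt24 (-3.03), Krt77 (-4.06), Lor (-1.47), Flg2 (-3.42), Lce1m (-2.73), Mt4 (-1.47) and Skint3 (-1.01). Serpins were Serpina3b (-4.17), Serpina3j (-2.35) and Serpinb6d (-2.13). Cell markers were Adgre1 (0.96), Cd207 (-1.35), Trgv5 (-2.22) and F13a1 (1.65). Metabolic and red cell genes were Ndufa4l2 (2.81), Tpi1 (0.95), Pkm (1.00), Tfrc (0.98), Ces1d (-2.34), Hbb-bt (5.04) and Hba-a1 (4.29). The others were Paqr7 (-1.46), Tmem35a (-2.03), P2rx2 (-2.12), Fgf7 (0.65), Srpx (0.57) and Robo1 (-0.37).

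Between day 5 and day 8 the effect differed for 11 named genes. Of these, 8 were named because their adjusted p for this same difference was among the smallest, so the rule partly set the count. Over all tested genes the share called was 3.91%. The differences, day 5 minus day 8, were Krt10 (-0.81), Krt24 (2.89), Tfrc (0.48), Cyp26b1 (0.89), Kif26b (-1.64), Fgf7 (1.01), Srpx (0.75), Robo1 (-0.74), Celsr2 (-0.47), Ccr4 (-1.32) and Pla2g4f (-0.67). Krt10 was above sham on days 2 and 8, at 0.53 ± 0.15 and 0.41 ± 0.15, and below it at day 5. The day 5 call of Krt10 was lost under several settings, as given in the report, and its groups overlapped. Each day had its own sham libraries, and a difference between days carries the spread of both sham groups.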

How the results depend on the processing

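The side with more calls changed with the method. At day 5, 6490 genes were higher and 6734 lower, against 6743 and 6712 under DESeq2. Day 5 minus day 2 gave 2699 higher and 2860 lower, against 3019 and 2744 under DESeq2 and 2912 and 2674 under RLE factors. Day 5 minus day 8 gave 328 higher and 406 lower, against 627 and 465 under DESeq2, 427 and 336 under RLE factors, 185 and 179 with no filter, 754 and 608 with only the groups compared, and 410 and 358 without imiquimod library 27. Limma voom gave 520 and 659. Library totals gave 1660 and 4372 for day 5 minus day 2. Under library totals the larger side also changed, or the sides became or ceased to be equal, for ribosomal proteins, cholesterol synthesis, endothelium, dendritic cells and T cells, as given in the report, for mast cells (4 and 3, then 3 and 4) and B cells (1 and 0, then 1 and 2), and for 2 groups described under other observations. Leaving out each library in turn gave 6296 to 6439 higher and 6443 to 6659 lower genes at day 5. The same fits gave 2429 to 2986 higher and 2506 to 3141 lower for day 5 minus day 2, 177 to 410 and 201 to 505 for day 5 minus day 8, and 495 to 505 higher and 257 to 267 lower list members. A log2 fold change of at least 1 left 2265 and 2689 genes at day 5, 753 and 751 for day 5 minus day 2, 49 and 53 for day 5 minus day 8, and 335 and 155 list members. The cause of these moves was not tested, beyond the fewer samples or the higher threshold. Of 777 list members and other named genes called at day 5, 81 lost the call under 1 or more settings, some under several: 55 under library totals, 25 with no filter, 13 with only the groups compared, 6 under DESeq2, and 9 when a library was left out and under no other setting. Under library totals 10 genes called higher had a log2 fold change below 0: Cox4i1 (-0.00288), Cpt1a (-0.0358), Dsp (-0.0115), Mmp14 (-0.00981), P4ha1 (-0.0271), Rpl19 (-0.0198), Rpl5 (-0.11), Rplp1 (-0.0602), Rps18 (-0.0539) and Traf3ip2 (-0.00281). Of these Rpl5 was then called lower (adjusted p = 0.00499 from edgeR). Beside those in the report, Krtap19-2 lost its call with only the groups compared (adjusted p = 0.118) and without sham library 21, and Mlana, a melanocyte gene, without sham library 19 (adjusted p = 0.0516). No paired analysis was possible because the titles number each library of the time course once, so the groups share no numbers. Values below 0.114 to 0.162 CPM rest on fewer than 3 counts in a library.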

Other observations

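Gene groups that the text above does not cover were also measured at day 5. Of 14 polyamine and purine genes 12 were higher and 2 lower, with a median of 0.93. Ada, adenosine deaminase, had 13.6 to 17.4 CPM in imiquimod libraries, against 2.77 to 3.98 CPM in sham libraries (2.16 ± 0.16), and Srm, spermidine synthase, had 72.1 to 96.97 CPM in imiquimod libraries, against 22.9 to 28.5 CPM in sham libraries (1.68 ± 0.13). Nt5e, the ectoenzyme that makes adenosine, was lower (-0.95 ± 0.09). Epidermal transcription factors were 9 higher and 4 lower of 16, or 6 and 6 under library totals: Cebpb was higher by 1.27 ± 0.09, and Gata3 and Pou2f3 were lower (-1.31 ± 0.11 and -1.21 ± 0.11).

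Fatty acid oxidation and peroxisome genes were 5 higher and 8 lower of 15, or 3 and 10 under library totals. Ppara, a nuclear receptor of fatty acid breakdown, had 0.962 to 1.68 CPM in imiquimod libraries, against 3.95 to 5.72 CPM in sham libraries (-1.79 ± 0.19), while the dehydrogenase gene Acadl was higher by 0.69 ± 0.07. Fibroblast and matrix genes were 7 higher and 6 lower of 16, or 5 and 6 under library totals, with Pdgfra higher by 0.88 ± 0.13 and Eln lower (-0.72 ± 0.12). Of 4 B cell genes Cd79b was called higher (2.44 ± 0.54), and Ms4a1 and Ighm were not called (adjusted p = 0.0743 and 0.217).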
